A study of Mus musculus with 9 samples.

Results

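The comparison sets N1E-115 mouse neuroblastoma cells that carried an siRNA pool against Hmgn5 and had 24 h to differentiate against cells that carried a control siRNA and had 4 h. It takes 6 of the 9 arrays of the series, 3 per group, chosen by their titles, and the remaining 3 arrays, of control siRNA at 24 h, are given beside it. The readout is 22180 genes, each by 1 of 41345 probe sets, the one with the highest mean over the 9 arrays where a gene had several. Both groups had received 80 nM of siRNA, had been held overnight in medium lacking serum, and had then been plated again on laminin, where N1E-115 cells put out neurites. Knockdown and the longer differentiation are both contained in every difference, and no array of knockdown cells at 4 h was used here, so their shares in a difference cannot be told apart from these 6 arrays alone. N1E-115 is 1 established line, the siRNA is a pool of sequences that the labels do not list, and the labels do not say whether replicates are separate cultures. The p-values therefore measure the spread between these arrays, which may be technical.

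Hmgn5 belongs to the HMGN family of small proteins that bind nucleosomes, and it lessens chromatin compaction by competing with linker histone H1. N1E-115 cells derive from a sympathetic tumour and carry the enzymes of catecholamine synthesis. When serum is withdrawn and laminin is offered they attach through integrins, slow their growth and extend processes, which calls on cytoskeletal, adhesion, membrane lipid and secretory genes.

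Values are log2 expression after the robust multi-array average, and a difference of 1 is a doubling of signal. A gene was called where limma's Benjamini-Hochberg adjusted p, from 1 fit of all 9 arrays and over all 22180 genes, lay under 0.05, and "rose" and "fell" are used of called genes. Array medians lay between 5.16 and 5.30, and arrays correlated pairwise at 0.978 to 0.995. Control 4 h replicate 2 stood apart: without it the lowest correlation was 0.991, and limma's array weight for it was 0.198 against 0.789 to 1.74 for the other 8 arrays. It belongs to the reference group of every difference from 4 h below. Of the neuroblastoma markers, 10 were measured and their mean level was 10.4 to 10.5 in the 4 h arrays and 10.6 to 10.7 in the knockdown arrays. Markers of glia (10), fibroblasts (12), leukocytes (11) and endothelium (12) had mean levels between 4.41 and 5.62 in these 6 arrays, near or below the array medians apart from the fibroblast list at 5.52 to 5.62, and none was called. Among defining markers, Th stood at 11.0 and Dbh at 11.2 over the 9 arrays, while the leukocyte marker Ptprc stood at 3.80 and the glial marker Sox10 at 5.14. Single markers of other cell types were bright: Fbln1 stood at 10.0, Pdgfrb at 7.63, Egfl7 at 7.59, Vwf at 7.30 and Erbb3 at 7.26, the last with a difference of 0.59 that did not pass (adjusted p = 0.162). Their part in the results was not tested.

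The targeted gene comes first, since it checks the labels. Hmgn5 measured 4.53, 4.23 and 4.57 in the control 4 h arrays and 3.53, 3.45 and 3.50 in the knockdown arrays. Every knockdown array lay below every 4 h array. Hmgn5 fell by 0.95 ± 0.09 (SE, n = 3 arrays per group), which left 51.8% of the 4 h signal (limma adjusted p = 0.00219), and an exact two-sided permutation test of the 6 arrays gave p = 0.1, the smallest that 3 against 3 allows. The gene is dim on this array: 29.3 to 38.5% of all probe sets lay below it at 4 h and 13.8 to 16.1% with the siRNA. In control cells its mean went from 4.44 at 4 h to 4.71 at 24 h, a difference that did not pass (adjusted p = 0.151). With 1 array left out at a time the Hmgn5 difference kept its call, at adjusted p between 0.000516 and 0.0163.

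In all, 338 genes (1.52% of those tested) rose and 231 (1.04%) fell, 2.57% in all, from control 4 h to Hmgn5 siRNA 24 h. These shares are the background for the counts of list members given below. Of these, 98 rises and 47 falls exceeded 1.5-fold, and 12 rises and 7 falls exceeded 2-fold. The 2 groups of arrays did not overlap for any of the 569 called genes, against 18.9% of all genes, and 3473 genes had an unadjusted p under 0.05. Genes at the edge of the call were Ctc1 (0.37) and Mesp2 (-0.30) just inside, at adjusted p of 0.0496 and 0.0499, and Dnajb2 (0.62) and the endoplasmic reticulum chaperone Hsp90b1 (-0.24) just outside, both at 0.05004. Beside them, control cells from 4 h to 24 h had 481 rises and 482 falls (2.17% each, 4.34% in all), and Hmgn5 siRNA against control at 24 h had 3 calls, Igfbp5 and Pltp higher (0.00902%) and Hmgn5 lower (0.00451%), 0.0135% in all. The comparisons share arrays, so their counts are not independent. The counts lean on single arrays. Rises numbered 212 without control 24 h replicate 1, 218 without its replicate 2, 209 without control 4 h replicate 3, and 95, 105 and 147 without knockdown replicates 1, 2 and 3, against 445 without control 4 h replicate 2. Falls numbered 126 and 131 without control 24 h replicates 1 and 2, 152 and 114 without control 4 h replicates 1 and 3, and 80, 60 and 74 without knockdown replicates 1, 2 and 3, against 339 without control 4 h replicate 2.

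**Figure D1:**
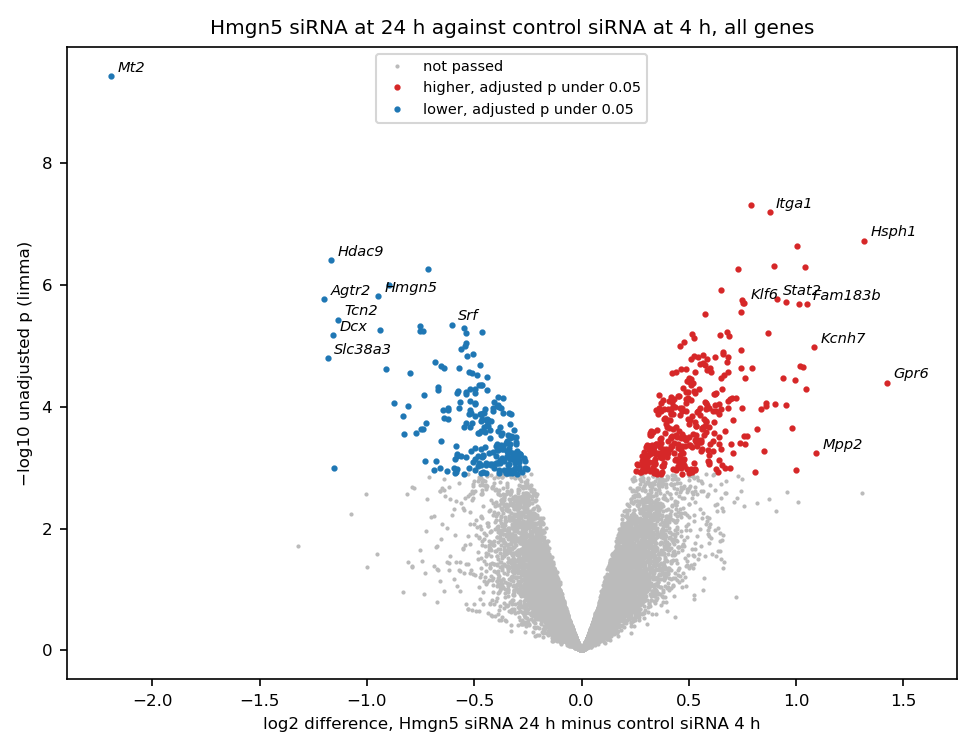
Each point is 1 of 22180 genes, with the log2 difference between Hmgn5 siRNA at 24 h and control siRNA at 4 h (3 arrays each) on the x axis and −log10 of limma's unadjusted p on the y axis. The 338 rises are red and the 231 falls blue; Mt2 lies alone at -2.19, and Hsph1 at 1.32 and Gpr6 at 1.43 are farthest to the right among called genes.

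The largest rise was in Gpr6, a receptor that signals through cyclic AMP without a bound ligand. It measured 6.47, 5.97 and 6.68 in the 4 h arrays and 7.58, 7.69 and 8.14 in the knockdown arrays, a 2.69-fold rise (1.43 ± 0.20 SE, adjusted p = 0.00916). Hsph1, a large cytosolic chaperone of the Hsp110 class, went from 9.19, 8.80 and 9.15 to 10.37, 10.30 and 10.42 (2.49-fold, 1.32 ± 0.10 SE, adjusted p = 0.00104). Its lowest knockdown array (10.30) lay above its highest 4 h array (9.19), and no called gene had overlapping groups. The potassium channel subunit Kcnh7 rose 2.12-fold, from 5.36, 5.50 and 5.16 to 6.40, 6.41 and 6.47 (adjusted p = 0.00532). Slc18a1, the vesicular transporter that loads monoamines into secretory granules, rose 2.02-fold, from 7.97, 7.87 and 8.03 to 9.0, 8.81 and 9.10 (adjusted p = 0.00219). Ccng2, an atypical cyclin tied to growth arrest, rose 2.04-fold, from 6.24, 5.60 and 6.02 to 6.98, 7.0 and 6.97 (adjusted p = 0.00718). In each of the 3 the lowest knockdown array exceeded the highest 4 h array, as in every gene called as a rise. The rest of the 10 largest rises were Mpp2, a synaptic scaffold protein (2.14-fold), Fam183b (2.07-fold), Herc6, an interferon-induced ubiquitin ligase of the mouse (2.06-fold), Parp3, an ADP-ribosyltransferase of DNA break repair (2.06-fold), and Pgf, a growth factor of the VEGF family (2.02-fold). All 10 also rose in control cells over the same time, by 0.76 (Herc6) to 1.70 (Gpr6), and their differences between the 24 h groups lay between -0.27 and 0.28 with none called. Mpp2 had a wide 4 h group (7.35, 6.42 and 7.44); without its low array, replicate 2, the difference was 0.77 (adjusted p = 0.00187). Its call was lost without any 1 of the 6 arrays at 24 h (adjusted p up to 0.113); the other 9 kept theirs whichever array was left out.

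Among the falls Mt2 stood far from the rest. Metallothionein 2 binds zinc and copper and is induced by metals, glucocorticoids and stress. It measured 9.97, 10.09 and 9.98 in the 4 h arrays and 7.73, 7.84 and 7.89 in the knockdown arrays, which makes it 4.57-fold lower (-2.19 ± 0.08 SE, adjusted p = 8.15e-06). The spread within each group was narrow (SD 0.06 and 0.08). In control cells Mt2 stood at 8.21 ± 0.15 (SD, n = 3) at 24 h, and the difference of -0.39 between the 24 h groups did not pass (adjusted p = 0.456). The related Mt1 went from 6.60, 6.35 and 6.77 to 6.13, 6.24 and 6.17, which did not pass (-0.39, adjusted p = 0.0917). Of the 11 measured metallothioneins and zinc response genes Mt2 alone was called. Without control 4 h replicate 2, Mt1 (-0.50, adjusted p = 0.0210) and the zinc importer Slc39a10 (0.40, adjusted p = 0.0114) were called too.

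The bases before the Mt2 start site are shown because it is the gene that differs most; the sequence is RefSeq's on GRCm38.p6 (chr8:94172368-94172617, plus strand), 250 bases that end just before the start site, with capitals marking matches to TGCACNC or TGCGCNC, the core letters of a metal response element, on either strand.
Mt2: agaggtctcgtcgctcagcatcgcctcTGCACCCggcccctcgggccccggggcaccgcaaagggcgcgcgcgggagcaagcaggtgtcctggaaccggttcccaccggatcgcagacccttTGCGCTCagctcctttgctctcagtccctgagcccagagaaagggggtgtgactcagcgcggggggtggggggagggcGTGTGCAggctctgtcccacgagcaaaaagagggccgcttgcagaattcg
The shown stretch holds 3 matches and its window of 300 bases 1 more. Of the 9 list members with a window of 300 bases (250 before the start site and 50 after), 7 had a match, against 25.6% of 27025 windows in all. Letters in a window are a description and show no binding.

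The other large falls covered receptors, transport and nuclear genes. Agtr2, the angiotensin II type 2 receptor, went from 6.88, 7.25 and 7.07 to 5.97, 5.93 and 5.69 (2.30-fold lower, adjusted p = 0.00219). Hdac9, a class IIa histone deacetylase, went from 8.35, 8.60 and 8.38 to 7.24, 7.34 and 7.24 (2.25-fold lower, adjusted p = 0.00123). Dcx, the microtubule-binding protein doublecortin of migrating young neurons, went from 6.61, 7.11 and 6.61 to 5.71, 5.59 and 5.55 (2.23-fold lower, adjusted p = 0.00397). For all 3 the groups did not overlap, which held for every called gene. Slc38a3, a glutamine transporter, was 2.27-fold lower and Tcn2, the plasma carrier of vitamin B12, 2.19-fold lower, and in both knockdown replicate 3 lay below its 2 partners (6.79 against 7.45 and 7.38, and 6.35 against 6.79 and 6.82). Rsph4a, a radial spoke protein of motile cilia, was dim throughout (4.44, 4.28 and 4.04 at 4 h and 3.47, 3.20 and 3.28 with the siRNA, adjusted p = 0.00397), and all 3 control 24 h arrays gave the same 3.70, so its fold is not given. Taf4b, a subunit of the TFIID complex (1.88-fold lower), and Cox7a1, a tissue-restricted subunit of cytochrome c oxidase (1.86-fold lower), completed the falls beside Hmgn5. All of these except Hmgn5 were called in control cells too, with differences of -0.55 (Rsph4a) to -1.80 (Mt2), and all 10 falls kept their calls with any 1 array left out.

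**Figure D2:**
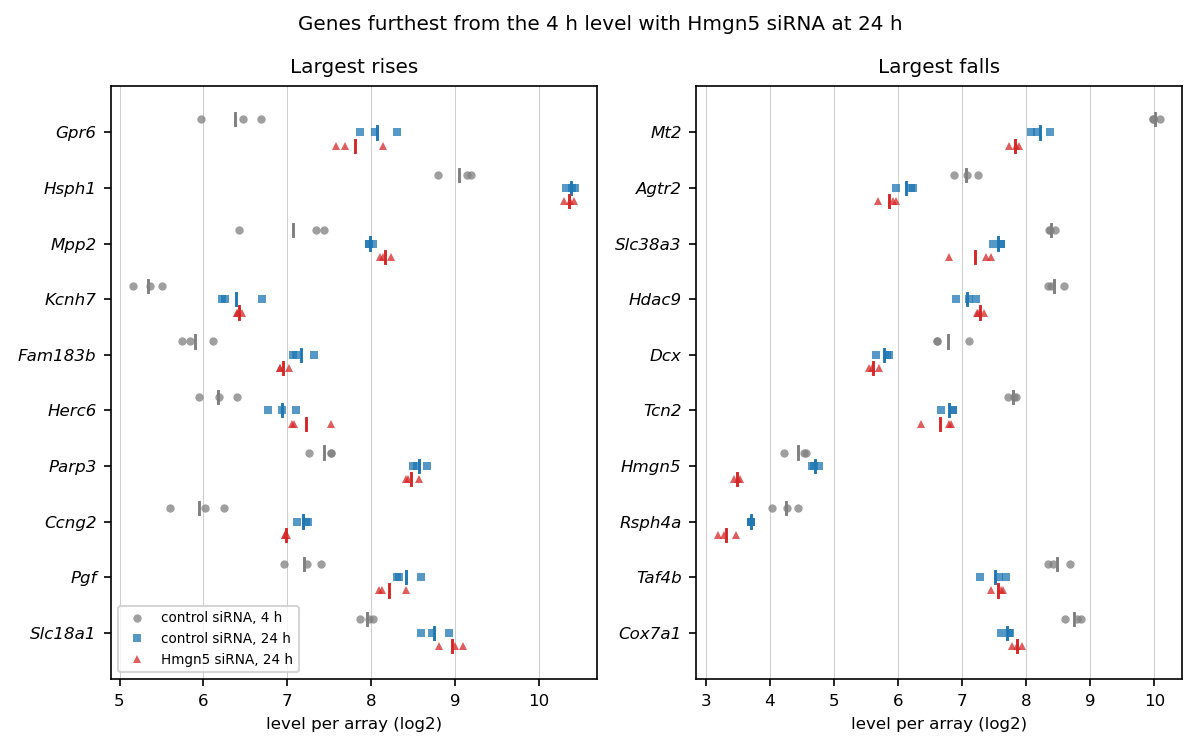
Levels (log2, x axis) of the 10 called genes with the largest rise and the 10 with the largest fall from control 4 h to Hmgn5 siRNA 24 h; each symbol is 1 array and each vertical bar the mean of 3. The knockdown arrays (red triangles) lie beside or among the control 24 h arrays (blue squares) for most genes. Hmgn5, at 3.45 to 3.53, lies below both control groups, at 4.23 to 4.57 (4 h) and 4.66 to 4.77 (24 h). The knockdown arrays of Mt2, Rsph4a, Slc38a3 and Mpp2 lie beyond the control 24 h arrays on the far side from 4 h.

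Genes of sterol synthesis lay above their 4 h level throughout. Of the 19 measured genes of cholesterol synthesis and uptake 11 rose and none fell, against 1.52% of all genes that rose, and all 19 differences were above 0 with a median of 0.52 (all genes 0.01). Msmo1, a sterol demethylation enzyme, measured 8.89, 8.94 and 8.88 at 4 h and 9.51, 9.56 and 9.40 in the knockdown arrays (1.5-fold, adjusted p = 0.00635). Hsd17b7, a sterol reductase, went from 8.56, 8.52 and 8.60 to 9.09, 9.0 and 9.24 (1.47-fold, adjusted p = 0.00710), and Tm7sf2, the sterol C14 reductase, from 7.34, 7.35 and 7.48 to 7.87, 7.95 and 7.92 (1.44-fold, adjusted p = 0.00621). Fdft1, squalene synthase, which commits the pathway to sterols, went from 11.17, 11.10 and 11.21 to 11.73, 11.66 and 11.58 (1.41-fold, adjusted p = 0.00836). These 4 kept their calls with any 1 array left out. The widest member difference was in Mvd, mevalonate decarboxylase, at 0.82 (adjusted p = 0.0199), and the smallest was in Srebf2, which encodes the sterol-sensing transcription factor, at 0.13 (adjusted p = 0.432). In control cells over time 11 members rose as well, with a median of 0.49, and none was called between the 24 h groups. The count was 6 without knockdown replicate 1, 7 without its replicate 2 and 10 to 12 without another array; control 4 h replicate 2 scored lower than its partners on the list (-0.15 against 0.08 and 0.08), and without it the median was 0.48.

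Hmgcs1, which makes the substrate of the mevalonate pathway (0.55, adjusted p = 0.0133), was the member whose promoter held the letters TCACNCCAC of a sterol regulatory element, on either strand, shown in capitals in the 250 bases before its start site (RefSeq, GRCm38.p6, chr13:119690101-119690350, plus strand).
Hmgcs1: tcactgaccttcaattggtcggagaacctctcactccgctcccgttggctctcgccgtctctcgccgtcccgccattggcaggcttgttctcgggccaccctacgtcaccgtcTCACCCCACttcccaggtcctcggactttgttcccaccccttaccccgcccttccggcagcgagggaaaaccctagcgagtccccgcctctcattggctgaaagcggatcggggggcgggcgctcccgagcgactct
The other 14 members with a window had no match to these letters, which occur in 1.22% of all windows.

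Of 15 fatty acid synthesis genes 2 rose and 1 fell, and the median was 0.09. Srebf1, the transcription factor of the pathway, went from 9.19, 8.94 and 9.12 to 9.66, 9.58 and 9.45 (1.4-fold, adjusted p = 0.0283), and Me1, malic enzyme, which supplies NADPH, from 9.80, 9.65 and 9.90 to 10.20, 10.18 and 10.19 (1.33-fold, adjusted p = 0.0195). Gpam, which starts glycerolipid assembly, fell by 0.32 (adjusted p = 0.0480). Neither rise was called without knockdown replicate 1 or 2, and all 3 calls were lost without at least 3 of the arrays (adjusted p up to 0.0805 for Me1, 0.11 for Srebf1 and 0.148 for Gpam). No gene of 12 in lipid export and LXR signalling was called, among them the cholesterol exporters Abca1 (0.20) and Abcg1 (0.13).

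Called members of the heat shock chaperone list all rose and those of the endoplasmic reticulum list all fell. Of 22 measured heat shock chaperones, cytosolic but for the co-chaperonin Hspe1 among those called, 6 rose and none fell, 20 differences were above 0 and the median was 0.27. Of 26 endoplasmic reticulum chaperones and unfolded protein response genes none rose and 6 fell (1.04% of all genes fell), 22 were below 0 and the median was -0.19. Besides Hsph1, the rises were Ahsa1, which stimulates the Hsp90 ATPase (1.6-fold, adjusted p = 0.00678), Hspa4l, an Hsp110 relative (1.48-fold, adjusted p = 0.00621), Stip1, which links Hsp70 to Hsp90 (1.34-fold, adjusted p = 0.00744), the mitochondrial co-chaperonin Hspe1 (0.57, adjusted p = 0.0161) and the Hsp90 partner Chordc1 (0.42, adjusted p = 0.0283). Stip1 measured 10.39, 10.51 and 10.42 at 4 h and 10.85, 10.85 and 10.90 in the knockdown arrays, and Ahsa1 went from 9.20, 8.83 and 9.06 to 9.75, 9.69 and 9.69. Hsph1, Hspa4l, Stip1 and Ahsa1 kept their calls with any 1 array left out. The inducible Hsp70 genes Hspa1a (0.05) and Hspa1b (0.05) did not pass. Of the falls, Dnajb9, a co-chaperone of BiP, went from 10.62, 10.66 and 10.71 to 10.20, 10.05 and 10.20 (1.42-fold lower, adjusted p = 0.00621). Herpud1, which serves the degradation of misfolded proteins, went from 10.18, 10.00 and 10.09 to 9.61, 9.59 and 9.64 (1.39-fold lower, adjusted p = 0.00712). Manf, a secreted stress protein, was 1.41-fold lower (adjusted p = 0.0130), Dnajc3, an inhibitor of the kinase PERK, 1.31-fold lower (adjusted p = 0.0132), Hspa5, which encodes BiP itself, lower by a difference of -0.45 (adjusted p = 0.0141) and the sensor Atf6 by -0.29 (adjusted p = 0.0376). Dnajb9 and Herpud1 kept their calls with any 1 array left out; Dnajc3 lost it without knockdown replicate 1 (adjusted p = 0.0621) and Manf without replicate 1 or 2 (up to 0.0617). Leaving out control 4 h replicate 2, which scored -0.08 on the list against 0.05 and 0.03, brought the falls to 16 of 26 and the median to -0.28; without knockdown replicate 1, 2 or 3 they numbered 3, 3 and 4. Without knockdown replicate 1 or 2 the cytosolic list had 4 rises, and leaving out control 4 h replicate 2 took its median to 0.16.

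For these chaperones the letters of their textbook promoter elements were looked up in the same windows. GAANNTTC, part of a heat shock element, occurred in 8 of 20 windows of cytosolic chaperones, among them 3 of the 6 called genes, and in 7.95% of all windows. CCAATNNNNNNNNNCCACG, the endoplasmic reticulum stress element, occurred in 10 of 22 windows of the endoplasmic reticulum list, among them 2 of the 4 called genes with a window, and in 0.13% (35 windows) of all. The 250 bases before the start sites of Hspe1 (chr1:55087898-55088147, plus strand), Hspa5 (chr2:34771840-34772089, plus strand) and Dnajc3 (chr14:118937682-118937931, plus strand) show the matches in capitals (RefSeq, GRCm38.p6), 1 of them a gene that rose and 2 genes that fell.
Hspe1: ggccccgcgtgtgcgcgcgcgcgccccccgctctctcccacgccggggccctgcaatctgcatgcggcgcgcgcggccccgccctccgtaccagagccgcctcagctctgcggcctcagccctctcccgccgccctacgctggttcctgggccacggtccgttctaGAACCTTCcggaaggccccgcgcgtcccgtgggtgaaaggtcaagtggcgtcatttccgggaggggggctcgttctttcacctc
Hspa5: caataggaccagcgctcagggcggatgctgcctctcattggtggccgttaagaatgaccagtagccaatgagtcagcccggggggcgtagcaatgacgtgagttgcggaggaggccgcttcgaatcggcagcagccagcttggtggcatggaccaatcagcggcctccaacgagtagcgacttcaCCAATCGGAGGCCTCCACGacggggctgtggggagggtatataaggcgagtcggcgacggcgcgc
Dnajc3: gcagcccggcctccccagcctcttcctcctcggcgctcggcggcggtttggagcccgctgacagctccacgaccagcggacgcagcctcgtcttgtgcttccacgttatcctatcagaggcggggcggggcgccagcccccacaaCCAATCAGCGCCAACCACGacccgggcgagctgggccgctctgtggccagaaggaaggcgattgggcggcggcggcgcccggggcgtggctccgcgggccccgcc
Dnajb9 and Herpud1, 2 falls that kept their calls, had no match to the full letters in this window.

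The integrated stress response, the branch that acts through the translation factor eIF2 and Atf4, had 1 rise among 29 genes, Atf5 (from 9.21, 8.64 and 9.12 to 9.60, 9.69 and 9.65, 1.57-fold, adjusted p = 0.0413), and no fall. That call was lost without 7 of the 9 arrays, all but control 4 h replicates 1 and 2 (adjusted p up to 0.142). In control cells 5 members had fallen over time, and 3 list members (Atf4, Mthfd2 and Slc7a1) met the condition for the 4 h level described last. All 3 nevertheless lay nearer to control cells at 24 h, as Slc7a1, an amino acid transporter (-0.19 from 4 h and 0.05 from control 24 h), and their intervals from 4 h excluded 0. Nupr1, a stress-induced chromatin protein, stood at 9.03 at 4 h, 8.72 with the siRNA and 8.26 in control cells at 24 h, and Ddit3, the factor CHOP, at 10.10, 9.88 and 9.52. Neither passed against 4 h (adjusted p = 0.115 and 0.220) or between the 24 h groups (0.337 and 0.461), and both had fallen in control cells (0.00271 and 0.00603). The list score of control 4 h replicate 2 was -0.21 against 0.10 and 0.11 in its partners, and without it the median moved from -0.01 to -0.11.

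Most DNA replication genes lay above their 4 h level, and 1 array stood out among the knockdown arrays. Of 37 measured replication and G1/S genes 4 rose and none fell, against 1.52% of all genes that rose, 35 differences were above 0, against 11509 of all 22180, and the median was 0.32. E2f1, the transcription factor that starts S phase, went from 8.69, 8.36 and 8.57 to 9.15, 8.95 and 9.11 (1.45-fold, adjusted p = 0.0190). Cdc6, which loads the replicative helicase, went from 6.26, 6.33 and 6.39 to 6.82, 6.77 and 7.41 (1.59-fold, adjusted p = 0.0443). Cdc6 was thus highest in knockdown replicate 3, and its groups, as in every called gene, did not overlap. Gins1, part of the replicative helicase, rose 1.34-fold (adjusted p = 0.0236) and Rfc3, part of the clamp loader, 1.39-fold (adjusted p = 0.0361). Knockdown replicate 3 had a list score of 0.56, the mean over members of the level minus its 4 h mean, against 0.23 and 0.22 in replicates 1 and 2. On the 43 G2 and mitosis genes it scored 0.39 against -0.09 and -0.11, and control 24 h replicate 3 scored 0.20 against -0.20 and -0.19. None of those 43 was called; their median was 0.06 with all arrays and -0.07 without knockdown replicate 3. Without that array the G1/S median was 0.24 and 1 member was called, without control 4 h replicate 3 or knockdown replicate 1 none was, without knockdown replicate 2 it was 1 and without any 1 control 24 h array 2, and without control 4 h replicate 2 the median was 0.25. The calls of E2f1, Gins1, Rfc3 and Cdc6 reached adjusted p of 0.0859, 0.0762, 0.129 and 0.106 with 1 array left out. In control cells over time 1 member rose and the median was 0.18, and none was called between the 24 h groups, where the median was 0.19.

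E2F binding letters, TTTNNCGC on either strand, were found in 14 of 31 list members with a window and in 5.27% of all windows. Cdc6 is shown as the called member with the largest difference: the match lies in capitals within the 250 bases before its start site (RefSeq, GRCm38.p6, chr11:98907901-98908150, plus strand).
Cdc6: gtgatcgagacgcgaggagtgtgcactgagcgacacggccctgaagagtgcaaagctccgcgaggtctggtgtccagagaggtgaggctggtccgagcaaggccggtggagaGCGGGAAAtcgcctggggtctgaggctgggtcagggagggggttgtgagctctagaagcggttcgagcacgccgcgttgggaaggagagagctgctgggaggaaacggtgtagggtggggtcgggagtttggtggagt
The capitals read on the plus strand are the reverse complement of the motif.

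**Figure D3:**
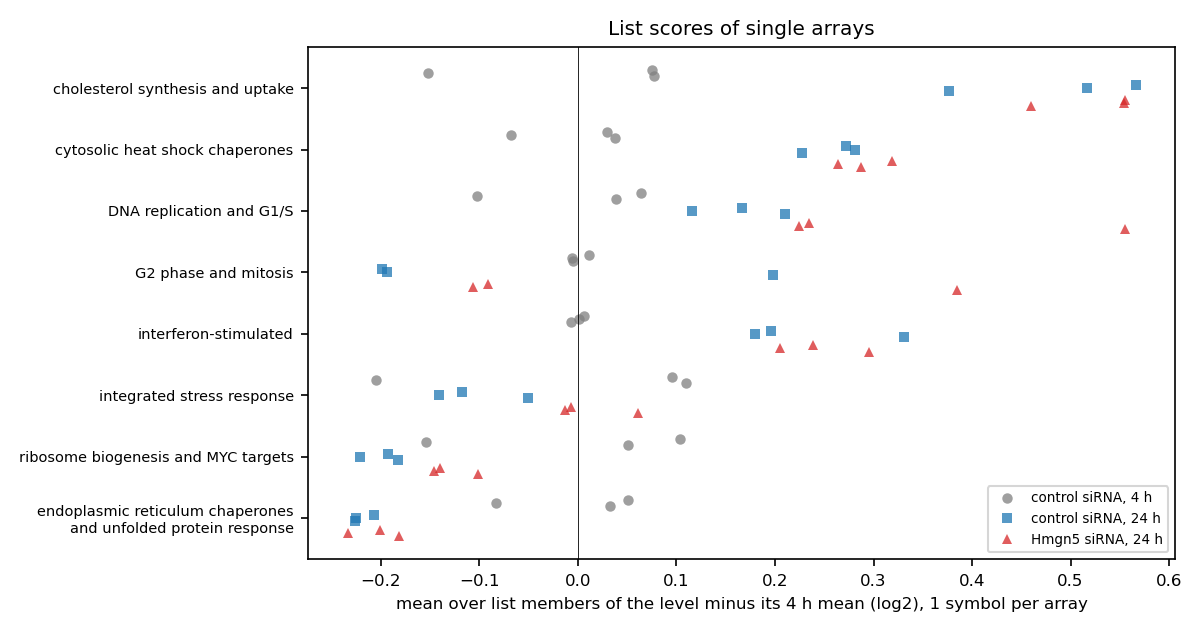
Score of each array (x axis, mean over list members of the log2 level minus its mean in the 4 h arrays) for 8 gene lists; grey circles are control 4 h, blue squares control 24 h and red triangles Hmgn5 siRNA 24 h, 3 arrays each. Knockdown replicate 3 lies apart on the 2 cell cycle lists (0.56 and 0.39), and control 4 h replicate 2 lies left of its partners on cholesterol synthesis (-0.15) and on the integrated stress response (-0.21).

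Neurite genes moved singly and in both directions. The growth cone list (47 measured) had 3 rises and 3 falls, beside 1.52% and 1.04% of all genes, with a median of 0.08 that was 0.04 without control 4 h replicate 2. Without knockdown replicate 2 or 3 it had 1 fall, and without control 24 h replicate 2, control 4 h replicate 1 or 3 or knockdown replicate 1 it had 2. Klf6, a zinc finger factor that supports axon growth, measured 9.44, 9.29 and 9.47 at 4 h and 10.08, 10.11 and 10.28 in the knockdown arrays (1.69-fold, adjusted p = 0.00219). Stmn4, a tubulin-binding stathmin of neurons, went from 6.71, 6.47 and 6.94 to 7.78, 7.63 and 7.52 (1.92-fold, adjusted p = 0.00836), and the adhesion protein Cntn2 rose by 0.68 (adjusted p = 0.0133). Over the alternatives listed at the end, the Stmn4 difference went from 0.94 down to 0.57 at its lowest, with its call kept in each. The falls were Dcx, Plxna4, a semaphorin co-receptor (9.95, 10.13 and 9.84 to 9.48, 9.45 and 9.27, 1.49-fold lower, adjusted p = 0.0133), and Shtn1, which couples actin to adhesion in growth cones (-0.39, adjusted p = 0.0274). Plxna4 lost its call without knockdown replicate 2 or 3 (adjusted p up to 0.0532). Of 31 microtubule proteins and motors, Map2, the dendritic microtubule protein, rose 1.41-fold (8.59, 8.54 and 8.40 to 8.95, 8.97 and 9.10, adjusted p = 0.0111), and the kinesin Kif21b was 1.35-fold lower (7.88, 7.90 and 7.85 to 7.42, 7.45 and 7.44, adjusted p = 0.0190). Tubb2b (0.56, adjusted p = 0.0692) and Kif3c (0.43, adjusted p = 0.0652) missed the threshold, and both were lowest in control 4 h replicate 2; without that array 4 members of the list rose in place of 1, and Kif21b was not called without control 4 h replicate 1 or 3 or any knockdown array (adjusted p up to 0.0798).

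Integrins and guidance genes gave a few rises, of which those of Itga1 and Itgb3 kept their calls with any 1 array left out. Itga1, the alpha1 integrin subunit that pairs with beta1 to bind laminin and collagen, had tight groups, 8.16, 8.18 and 8.11 against 8.99, 9.05 and 9.03 (1.84-fold, 0.88 ± 0.06 SE, adjusted p = 0.000465). The integrin subunit Itgb3 went from 8.26, 8.10 and 8.15 to 8.68, 8.70 and 8.70 (1.44-fold, adjusted p = 0.00420). Itga3, like Itga1 a laminin receptor subunit, went from 8.04, 7.99 and 8.12 to 8.57, 8.51 and 8.42 (1.37-fold, adjusted p = 0.0116). Itga1, Itgb3 and Itga3 were the 3 calls among 43 genes of integrins, laminins and matrix, beside 1.52% of all genes that rose, and the list median was 0.02. All 3 also rose in control cells (0.77, 0.46 and 0.43), and Itga3 lost its call without knockdown replicate 1 or 2 (adjusted p up to 0.0553). Of 45 axon guidance genes 3 rose, beside 1.52% of all genes, and none fell, with a median of 0.02: the ligand Slit2 (1.35-fold, adjusted p = 0.0142), the ligand Sema6d (1.31-fold, adjusted p = 0.0133) and the netrin receptor Unc5c (1.23-fold, adjusted p = 0.0320). All 3 calls were lost without any 1 of the knockdown arrays. Slit2 was also lost without control 4 h replicate 3, and Unc5c without every array but control 4 h replicate 2. With 1 array left out the adjusted p was at most 0.0628 for Slit2, 0.0615 for Sema6d and 0.119 for Unc5c. The semaphorin and VEGF co-receptor Nrp2 stood at 10.20 at 4 h, 9.93 in control cells at 24 h and 10.43 with the siRNA, and neither its difference from 4 h (0.23, adjusted p = 0.117) nor that between the 24 h groups (0.50, adjusted p = 0.108) passed.

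Genes of sympathetic identity rose where they were called. Of 22 sympathetic and catecholamine genes 3 rose and none fell, with a median of 0.08 that was 0.03 without control 4 h replicate 2. Beside Slc18a1, Th, the rate-limiting enzyme of catecholamine synthesis, measured 10.80, 10.58 and 10.76 at 4 h and 11.08, 11.06 and 11.39 in the knockdown arrays (1.38-fold, adjusted p = 0.0439), and Scg2, a granule protein, went from 10.81, 10.84 and 10.94 to 11.20, 11.14 and 11.17 (1.24-fold, adjusted p = 0.0283). The call of Th was lost with any 1 of the 9 arrays left out (adjusted p up to 0.0987), and Scg2 lost it without 6 of them, all but control 24 h replicate 3 and control 4 h replicates 2 and 3 (up to 0.109). Dbh, which converts dopamine to noradrenaline, stood at 10.82 at 4 h, 11.62 in control cells at 24 h and 11.19 with the siRNA; it rose over time in control cells (0.80, adjusted p = 0.00534) and did not pass in the knockdown arrays against 4 h (0.38, adjusted p = 0.115) or against control 24 h (-0.42, adjusted p = 0.595). No adrenergic neuroblastoma transcription factor (15 measured, median 0.09) was called, among them Hand2 (-0.25), Gata3 (0.20) and Isl1 (0.39). Of 27 mesenchymal state genes Anxa2, a membrane-binding annexin, fell (1.33-fold lower, adjusted p = 0.0133), a call lost without knockdown replicate 1 or 2 (adjusted p up to 0.0640). For vesicle release, 2 of 29 genes rose, Rab3c, a vesicle GTPase (9.14, 9.08 and 9.17 to 9.47, 9.50 and 9.45, 1.27-fold, adjusted p = 0.0136), and the endocytic protein Amph (1.37-fold, adjusted p = 0.0378); their calls were lost without knockdown replicate 1 or 2, and that of Amph without 7 arrays in all, control 24 h replicate 3 and control 4 h replicate 3 being the exceptions (adjusted p up to 0.0657 and 0.142). With the mean of its probe sets Rab3c had a difference of 0.20 (adjusted p = 0.168). Of 37 voltage-gated channel subunits on the list, which did not hold Kcnh7, 3 rose and 1 fell, beside 1.52% and 1.04% of all genes. Kcnab1 went from 6.22, 6.31 and 6.14 to 6.79, 6.84 and 6.79 (1.5-fold, adjusted p = 0.00719) and kept its call with any 1 array left out; the calcium-activated channel Kcnn3 rose 1.54-fold (adjusted p = 0.0112), the sodium channel subunit Scn3b 1.21-fold (adjusted p = 0.0480), and Kcnh6 was 1.5-fold lower (adjusted p = 0.0283). Kcnn3 lost its call without knockdown replicate 1 or 2 (up to 0.0544), Kcnh6 and Scn3b without 6 and 8 of the 9 arrays (up to 0.0897 and 0.154).

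The list of interferon-stimulated genes had 2 calls, both rises. It did not hold Herc6, the interferon-induced gene among the largest rises above. Of 33 measured members 2 rose and none fell, 27 differences were above 0 and the median was 0.16 (over all genes 1.52% rose and 11509 of 22180 were above 0), with 5 rises and a median of 0.15 in control cells over time. Stat2, the transcription factor of the type I interferon pathway, went from 8.46, 8.15 and 8.31 to 9.25, 9.24 and 9.15 (1.88-fold, adjusted p = 0.00219). Usp18, a protease that removes ISG15 and dampens the receptor, went from 6.35, 6.34 and 6.18 to 7.13, 7.02 and 6.96 (1.68-fold, adjusted p = 0.00284), and both calls held with any 1 array left out; without control 24 h replicate 3 the list had 5 rises. Ifit1, with the widest difference on the list (1.31), did not pass (adjusted p = 0.0724), nor did Oasl2 (0.67, adjusted p = 0.0723) and Ifitm3 (-0.51, adjusted p = 0.0714). Among FoxO targets and growth arrest genes 3 of 32 rose, Ccng2, the stress sensor Sesn3 (9.06, 8.90 and 9.02 to 9.48, 9.48 and 9.42, 1.38-fold, adjusted p = 0.00718) and the insulin receptor Insr (0.32, adjusted p = 0.0224). Insr lost its call without control 4 h replicate 1 or 3 or knockdown replicate 1 or 2 (adjusted p up to 0.0972). Of 46 immediate-early genes and targets of the serum response factor, 2 rose and 3 fell, beside 1.52% and 1.04% of all genes, with a median of 0.01. Srf itself measured 9.60, 9.60 and 9.59 at 4 h and 9.06, 9.04 and 8.88 in the knockdown arrays (1.52-fold lower, adjusted p = 0.00397); its targets Cnn2 (1.61-fold lower, adjusted p = 0.00678) and Zyx (-0.33, adjusted p = 0.0480) fell with it. Dusp1, a phosphatase of MAP kinases, rose 1.97-fold (8.19, 8.12 and 8.38 to 8.99, 9.10 and 9.54, adjusted p = 0.0195) and the antiproliferative Btg2 1.45-fold (adjusted p = 0.0226). Dusp1 lost its call without control 4 h replicate 1 or knockdown replicate 2 or 3 and Btg2 without control 4 h replicate 1 or 3 or knockdown replicate 1 or 2 (up to 0.0642 and 0.100), while Srf and Cnn2 kept theirs. Without control 4 h replicate 2 the list had 6 falls. Fos (-0.04), Egr1 (-0.13) and Myc (-0.16) did not pass.

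Ribosome biogenesis and chromatin genes fell where they were called. Of 35 ribosome biogenesis and MYC target genes none rose and 5 fell, beside 1.04% of all genes, 28 were below 0, beside 10660 of all 22180, and the median was -0.10, with 7 falls and a median of -0.18 in control cells over time. Wdr43, a component of the small subunit processome, went from 11.06, 11.11 and 10.95 to 10.58, 10.50 and 10.57 (1.41-fold lower, adjusted p = 0.0106) and Wdr75, its partner there, from 10.68, 10.70 and 10.66 to 10.30, 10.24 and 10.34 (1.31-fold lower, adjusted p = 0.0120). Utp14a was 1.37-fold lower (adjusted p = 0.0133), the nucleolar GTPase Gnl3 1.24-fold lower (adjusted p = 0.0326), and Utp20 had a difference of -0.26 (adjusted p = 0.0443). The number of falls was 9 without control 4 h replicate 2 and 1 to 4 without any other single array; Wdr43 and Wdr75 lost their calls without knockdown replicate 2 (adjusted p = 0.0511 and 0.0579). Of 12 HMG proteins and linker histones 2 fell, Hmgn5 and H1f10, a linker histone variant (9.62, 9.66 and 9.64 to 9.26, 9.21 and 9.42, 1.27-fold lower, adjusted p = 0.0339). H1f10 also fell in control cells (-0.46), and its call was lost without 7 of the 9 arrays, all but control 24 h replicate 3 and knockdown replicate 3 (up to 0.133). Of 51 chromatin remodelling and histone-modifying enzymes 3 fell and none rose, beside 1.04% of all genes that fell. With 22 differences above 0 and 29 below, the median of that list was -0.03. The falls were Hdac9, the remodelling ATPase Ino80 (9.70, 9.96 and 9.76 to 9.40, 9.36 and 9.32, 1.36-fold lower, adjusted p = 0.0162) and the deacetylase Sirt1 (8.19, 8.16 and 8.21 to 7.78, 7.83 and 7.83, 1.29-fold lower, adjusted p = 0.0215). Ino80 and Sirt1 lost their calls without any 1 of the knockdown arrays, Sirt1 also without control 4 h replicate 1 or 3 (up to 0.0713 and 0.0936). Among the clock genes Cry1, a repressor of the cycle, fell (1.38-fold lower, adjusted p = 0.0206, 1 of 19), and of the Id and Hes family Hey2 fell (1.46-fold lower, adjusted p = 0.0191) while Hey1 rose (1.19-fold, adjusted p = 0.0473, 15 measured). Cry1 and Hey2 lost their calls without control 4 h replicate 1 or any knockdown array (up to 0.0864 and 0.0900), and Hey1 without every array but control 4 h replicate 2 (up to 0.147).

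Metabolic and degradative lists had 0 to 4 calls each. Of 28 glycolysis and hypoxia-inducible genes 3 rose and 1 fell, beside 1.52% and 1.04% of all genes, with a median of 0.00. Beside Pgf, the glucose transporter Slc2a1 went from 9.08, 8.76 and 9.04 to 9.39, 9.40 and 9.52 (1.39-fold, adjusted p = 0.0233), the collagen hydroxylase subunit P4ha2 rose 1.43-fold (adjusted p = 0.0476), and the glycolytic enzyme Pgk1 fell by 0.32 (12.84, 12.67 and 12.78 to 12.41, 12.40 and 12.51, adjusted p = 0.0341). Without control 4 h replicate 2 the list had 7 falls in place of 1 and a median of -0.06, and without any other single array Pgk1 was not called (adjusted p up to 0.133); P4ha2 followed the same pattern (up to 0.150), and Slc2a1 was lost without any 1 of the knockdown arrays (up to 0.0912) and with the mean of its probe sets (0.23, adjusted p = 0.135). Of 31 oxidative phosphorylation genes Cox7a1 alone was called, a share close to the 2.57% of all genes, and 27 were above 0, beside 11509 of all 22180 genes, with a median of 0.12. Of 30 proteasome subunits none was called, 27 were above 0 and the median was 0.11. Control 4 h replicate 2 was low for several of these, as for Psmb4 (9.02 against 9.79 and 9.75), and without it the medians were 0.09 and 0.06. Of 27 lysosomal genes 2 rose and 1 fell, beside 1.52% and 1.04% of all genes: Ctsd, cathepsin D (11.06, 10.71 and 11.07 to 11.54, 11.49 and 11.38, 1.44-fold, adjusted p = 0.0252), Gla, alpha-galactosidase (1.27-fold, adjusted p = 0.0475), and Ctsl, cathepsin L, lower (9.38, 9.28 and 9.53 to 8.86, 8.90 and 8.87, 1.43-fold lower, adjusted p = 0.0106). Ctsl kept its call with any 1 array left out, Ctsd was lost without 5 and Gla without 8 of the 9 arrays (up to 0.104 and 0.149).

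**Figure D4:**
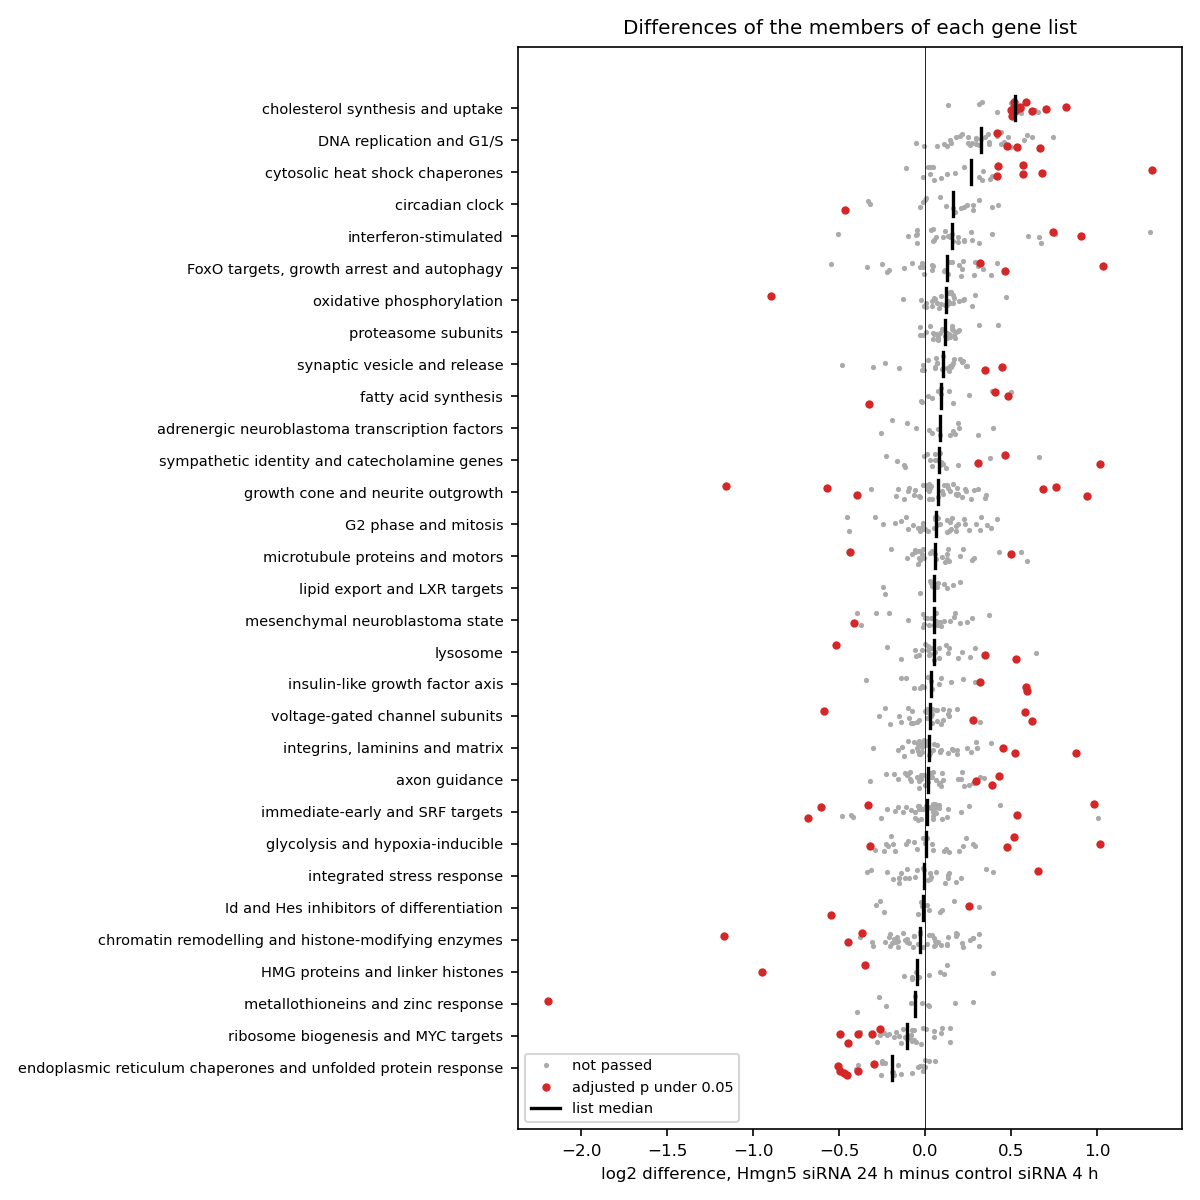
Each point is 1 measured member of 1 of 31 gene lists, with its log2 difference, Hmgn5 siRNA 24 h minus control siRNA 4 h, on the x axis; red points passed (limma adjusted p under 0.05) and black bars are list medians. The lists run from a median of 0.52 for cholesterol synthesis and uptake to -0.19 for endoplasmic reticulum chaperones, and most medians lie near 0.01, the median of all genes.

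The second question of the comparison is which genes stood at the 4 h level despite 24 h of differentiation. Of the 963 genes called over time in control cells, 445 were also called in the knockdown arrays against 4 h, all in the same direction but Igfbp5. Another 66 (6.85%) stood at the 4 h level, meaning that limma's 95% confidence interval of the difference from 4 h lay within 0.3219 log2 units of 0 on both sides, as it did for 56.9% of all genes. The remaining 452 met neither condition, so these arrays do not place them. Being inside the limit is not being equal to 4 h: for 29 of the 66 the interval excluded 0, for 42 the knockdown and 4 h arrays did not overlap (Otog, Dtx1, Niban1 and Nabp1 of those named next among them), and 23 lay nearer to control cells at 24 h than to 4 h. All 3 sets rest on the 4 h arrays in common and are descriptions without a test. Of the 66 genes, 43 had fallen and 23 had risen in control cells, by absolute differences of 0.22 to 0.85. Just inside the limit, by the bound farther from 0, lay Otog (0.3199) and Nifk (0.3203), and just outside Tapt1 (0.3222) and Cacna1i (0.3228). The set depends heavily on single arrays: it held 149 genes without control 4 h replicate 2, 17, 11 and 22 without control 24 h replicates 1, 2 and 3, 20 and 9 without control 4 h replicates 1 and 3, and 27, 26 and 27 without knockdown replicates 1, 2 and 3.

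Pltp had the widest control difference of them. It encodes phospholipid transfer protein, which moves phospholipids between lipoproteins, and is a target of the LXR receptors. The 4 h arrays gave 7.99, 7.59 and 7.85, the knockdown arrays 7.89, 7.94 and 7.81, and the control 24 h mean was 6.96 ± 0.02 (SD, n = 3). The knockdown arrays lay within the range of the 4 h arrays, with a difference of 0.07 and an interval of -0.14 to 0.28, while control cells had fallen by 0.85 (adjusted p = 0.00211). Its difference between the 24 h groups was called (0.92, adjusted p = 0.0296), as that of no other gene of the 66. Pltp left the set without control 4 h replicate 1 or 3 or knockdown replicate 3. No other gene among the 66 had changed by 1.5-fold in control cells, and the next 11 named were chosen after their values were seen, as those with the widest control difference once predicted and olfactory receptor symbols (Olfr122 and Gm6524) were passed over. Of these, 7 had fallen over time. Niban1, a stress-responsive regulator of translation, measured 9.07, 9.05 and 9.17 at 4 h and 9.04, 8.96 and 9.04 with the siRNA, against 8.64 ± 0.07 in control cells at 24 h. Nabp1, a single-stranded DNA binding protein, gave 9.95, 10.01 and 10.02, then 9.92, 9.92 and 9.86, against 9.54 ± 0.15. Sting1, the adaptor of cytosolic DNA sensing, gave 6.47, 6.36 and 6.43, then 6.30, 6.45 and 6.36, against 6.0 ± 0.06. These 3 stood at the 4 h level in all 16 alternatives in which that could be computed. Haus6, an augmin subunit for microtubule branching (7.45 at 4 h, 7.33 with the siRNA, 6.97 in control cells at 24 h), the nuclear receptor Pparg (9.99, 9.86 and 9.53), the inner ear protein Otog (5.73, 5.54 and 5.28) and the sorting nexin Snx33 (5.30, 5.21 and 4.89) did so in 11, 6, 5 and 6 of the 16. Of the genes that had risen in control cells, the Notch regulator Dtx1 stood at 8.55, 8.70 and 9.0 in the same order, Ypel3 at 6.70, 6.81 and 7.14, the secretin receptor Sctr at 7.65, 7.56 and 8.07, and the ubiquitin ligase Peli3 at 6.35, 6.46 and 6.76, holding in 12, 13, 8 and 6 of the 16. None of these 11 was called between the 24 h groups, with adjusted p of 0.259 (Niban1) to 0.779 (Peli3), so a difference from control cells at 24 h was not shown for them.

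Other genes were off the 4 h level in the knockdown arrays without a call in control cells. They numbered 124, and the 6 with the largest difference between the 24 h groups were Hmgn5, Mir103-2, Plce1, Plxna4, Adam12 and Usp18. Adam12, a membrane-bound metalloprotease, measured 6.89, 6.71 and 6.87 at 4 h and 7.31, 7.47 and 7.51 with the siRNA (1.52-fold, adjusted p = 0.00744), against 6.97 ± 0.08 (SD, n = 3) in control cells at 24 h. Plce1, a phospholipase that answers to Ras, went from 7.69, 8.08 and 7.69 to 7.41, 7.15 and 7.21 (1.48-fold lower, adjusted p = 0.0341), against 7.82 ± 0.06. In Plxna4 the control mean at 24 h was 9.91 ± 0.07, close to the 4 h mean of 9.97, and in Usp18 it was 6.59 ± 0.09, between 6.29 at 4 h and 7.03. The probe set of the microRNA gene Mir103-2 gave 4.23, 5.13 and 4.04 in the knockdown arrays, a wide spread, against 5.43, 5.89 and 5.54 at 4 h (2.23-fold lower, adjusted p = 0.0447). Apart from Hmgn5, none of the 6 was called between the 24 h groups (adjusted p of 0.269 to 0.926). Adam12 and Usp18 kept their calls with any 1 array left out, Plce1 lost its call without 7 of the 9 (all but control 4 h replicates 1 and 2, up to 0.135) and Mir103-2 without all but knockdown replicate 2 (up to 0.153).

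Igfbp5, a secreted protein that binds insulin-like growth factors, was the gene called in opposite directions. It measured 8.67, 8.51 and 8.75 at 4 h and 9.31, 9.37 and 9.02 in the knockdown arrays, a 1.51-fold rise (0.59 ± 0.12 SE, adjusted p = 0.0335), while control cells had fallen to 8.14 ± 0.18 (SD, n = 3; -0.50, adjusted p = 0.0491). The knockdown arrays lay above all 4 h arrays and the control 24 h mean lay below them. Its call against 4 h was lost without control 24 h replicate 2, any control 4 h array, or knockdown replicate 1 or 2 (adjusted p up to 0.133). Of the 19 genes of the insulin-like growth factor axis Igfbp5, Insr and Irs1, the receptor substrate (7.30, 6.89 and 7.20 to 7.77, 7.76 and 7.63, 1.5-fold, adjusted p = 0.0311), rose, with a list median of 0.03 and no call without control 4 h replicate 3 or knockdown replicate 1 or 2; Irs1 lost its call without control 24 h replicate 2 or 3, control 4 h replicate 3 or any knockdown array (up to 0.119). Igfbp6, a relative, did not pass (0.29, adjusted p = 0.109).

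A last set was called in both comparisons with 4 h in the same direction, and those with the largest difference between the 24 h groups had all fallen less far in the knockdown arrays by their means. Cnn2, the actin-binding protein calponin 2, gave 8.33, 8.06 and 8.20 at 4 h and 7.41, 7.55 and 7.58 with the siRNA (-0.68), against 6.95 ± 0.10 in control cells at 24 h (-1.25). Pla2g2e, a secreted phospholipase A2, gave 8.25, 8.42 and 8.23, then 7.61, 7.62 and 7.75 (-0.64), against 7.14 ± 0.12 (-1.16). Lcn2, an iron-siderophore carrier of the acute phase, gave 7.65, 7.96 and 7.70, then 7.14, 7.09 and 7.22 (-0.62), against 6.64 ± 0.14 (-1.13). In all 3 the knockdown mean lies between the control means at 4 h and 24 h. The same order held for the RNA export factor Nxf7 (10.11, 9.60 and 9.06 at 4 h, with the siRNA and in control cells at 24 h), for 1810010H24Rik (8.30, 7.56 and 7.03) and for Gnpnat1, an enzyme of UDP-GlcNAc synthesis (9.15, 8.52 and 8.05). None of these 6 differences between the 24 h groups passed (adjusted p of 0.208 to 0.761). Cnn2 and Pla2g2e kept their calls against 4 h with any 1 array left out, while Gnpnat1 lost its call without any 1 of the 9 (up to 0.153), 1810010H24Rik without control 4 h replicate 1 or 3 or knockdown replicate 2 or 3 (up to 0.0692), and Lcn2 and Nxf7 without knockdown replicate 1 or 2 (up to 0.0672 and 0.0852).

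**Figure D5:**
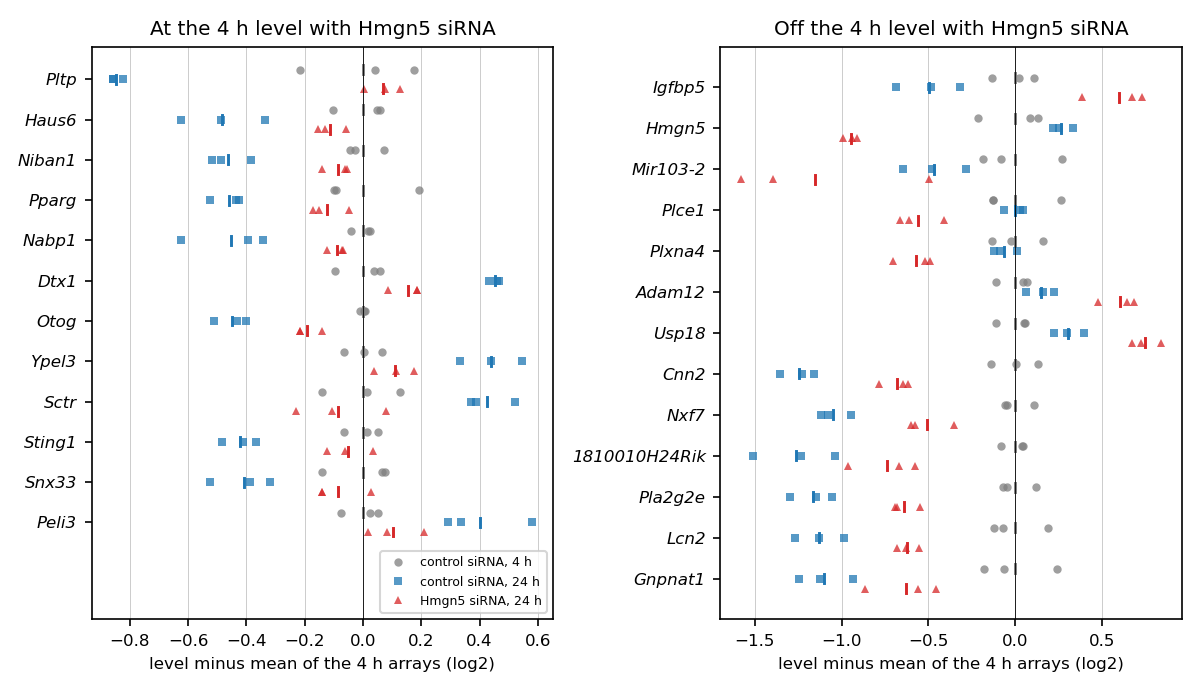
Levels of single arrays minus the mean of the 4 h arrays (log2, x axis), with bars at group means of 3 arrays; the left panel has 12 genes at the 4 h level with Hmgn5 siRNA, the right panel 13 genes off it. Pltp stays near 0 with the siRNA (0.07 on average) while control 24 h arrays lie at -0.85 on average, Igfbp5 lies on opposite sides of 0 in the 24 h groups, and Cnn2 (-0.68 against -1.25) lies between.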

How the data were processed

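The data are 9 Affymetrix arrays of N1E-115 cells, 3 per group. The deposited table holds log2 expression values per probe set, which the authors made with RMA in the oligo package, per the submitters' processing notes; versions and the genome build are not given in the sources used here. RMA gives the probe intensities of all arrays the same distribution before probe sets are summarised, so a shift common to most genes would largely be hidden. The medians of the probe set values still differed between arrays, at 5.16 to 5.30. No column of the table belonged to another sample.

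Of 41345 probe sets, 23521 carry 1 gene symbol in the platform annotation, 1814 several and 16010 none; the brightest per symbol over the 9 arrays gave 22180 genes, of which 1082 had several probe sets. Group means of all 9 arrays were fitted with limma 3.58.1 (lmFit and eBayes) in R 4.3.3 (6 residual and 3.55 prior degrees of freedom), and p-values were adjusted by Benjamini and Hochberg over all genes at 0.05. No arrays were identical. The number of arrays limits the precision, and the median SE of a difference was 0.088. In data simulated for this comparison over 22180 genes, the fit recovered 71.5% of 200 changes of 1.5-fold and 95.5% of 200 changes of 2-fold, with 13 and 8 false calls. The simulated noise was independent between arrays and had the same spread in all 9 of them. An outlying array such as control 4 h replicate 2 was not simulated, so these shares may not hold for the real arrays.

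The members and lists were chosen with earlier results of these data known. The genes named were Hmgn5, Igfbp5 and Pltp, the 10 largest rises and falls among called genes with groups apart (clone, predicted and microRNA symbols and chemoreceptors left out, which passed over 1 fall), up to 10 genes at the 4 h level that changed 1.5-fold over time, up to 6 genes called against 4 h but not over time and up to 6 called in both, by their difference between the 24 h groups, and up to 4 members of each list with the smallest p. Other list members were named after their values were seen. Of 949 listed genes 879 were measured, on 31 lists. Promoter letters were searched in RefSeq windows (GRCm38.p6), which 97 of 115 members of the lists concerned had. The alternatives were a replicate block, the 6 arrays alone, a trended robust prior, array weights, a filter on dim genes, cyclic loess, median centring, probe set means, each array left out, a wider margin and a minimum change.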

Additional observations from a re-analysis of the deposited data

Results flagged for a closer look

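Probe sets without a single gene symbol were not part of the comparison. Of these 17824 probe sets, 10 were higher and 18 lower with Hmgn5 siRNA at 24 h than in control cells at 4 h, in a limma fit of all 41345 probe sets with Benjamini-Hochberg adjustment (0.157% called). Of the 17824, 1814 carry several gene symbols and 16010 none. Beside them, 2.57% of the genes were called in their own fit. The called probe sets were noted because the report does not otherwise use these data.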

How the results depend on the processing

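Counts moved with the processing. Of the 92 named genes that were called, 34 kept the call in every alternative run for them (up to 17), 58 lost it in at least 1, 84 kept it without control 4 h replicate 2, and 0 reversed. The last count was largely fixed beforehand, since the groups of arrays of called genes did not overlap. Among the named genes at the 4 h level, the difference of Pltp alone changed sign, from 0.07 to -0.04 without control 4 h replicate 2. Against 338 rises and 231 falls, the 6 arrays alone gave 75 and 38, array weights 697 and 529, and a minimum change of 1.2-fold 18 and 10; leaving out 1 array gave 95 to 445 rises and 60 to 339 falls. Of the 569 calls, array weights kept 569, and the 6 arrays alone, which leave fewer degrees of freedom, kept 111. Against 66 genes at the 4 h level, a trended robust prior gave 114, array weights 307, the filter on dim genes 112, and a margin of 1.5-fold 537; leaving out 1 array gave 9 to 149. That count was not run on the 6 arrays, which hold no control at 24 h. The Hmgn5 difference kept its call in every alternative in which it was tested; the filter on dim genes removed it. Why the counts moved was not tested.

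With the replicate block, the counts were 311 rises, 194 falls and 47 genes at the 4 h level, 430 of its 505 calls were shared with the fit without it, and Hmgn5 had a difference of -0.95 (limma adjusted p = 0.00388). Same-numbered arrays correlated in their deviations from the group means at 0.00851 to 0.285, the highest between the replicates 3 of the 24 h groups. Whether the numbers mark paired arrays was not tested. Hmgn5 is dim on this array, and whether that affects its measured change was not tested.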
